A study of Mus musculus with 3 samples.

Results

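The loci described here are those of 8 mouse genes that pattern the early brain: Zic1, Zic2, Zic4 and Zic5, Otx1 and Otx2, and En1 and En2. Members were the listed Cbx2 peaks that overlap any of 6 windows of the mm9 genome drawn around these genes. The windows were chr9:91220000-91310000 for Zic1 and Zic4, chr14:122830000-122910000 for Zic2 and Zic5, chr14:49240000-49310000 for Otx2, chr11:21860000-21930000 for Otx1, chr1:122460000-122540000 for En1 and chr5:28450000-28530000 for En2. Of the 2217 peaks listed, 5 overlapped a window. The Zic2/Zic5 window held 2 of them, and the Otx2, Otx1 and En2 windows held 1 each. No peak was listed in the Zic1/Zic4 window or in the En1 window. Only the windows link a peak to a gene: the annotation at hand was on another assembly, so exons, introns and start sites were not placed on the peaks. The En2 peak lay mostly outside its window, with 1200 of its 4800 bp inside.

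The peaks come from chromatin immunoprecipitation and sequencing (ChIP-seq) of Cbx2 in C3H10T1/2 cells, a mesenchymal progenitor line from C3H mouse embryos, at passages 10 to 15. One ChIP library came from cells stably expressing wild-type histone H3.3 with a FLAG-HA tag (H3.3WT). The other came, by its title, from cells expressing H3.3 with methionine in place of lysine 36 (K36M), while the genotype given for that sample is again wild-type H3.3. An input DNA library from the H3.3WT cells was not analysed here. No treatment is named, and whether either line is a single clone is not given in the sources used here. The ChIP libraries held 29278813 (H3.3WT) and 36243012 (K36M) reads. With 1 library per group there was no replicate, so nothing below could be set against the spread between cultures, and no p-value is given. The identity of the cells could not be checked, since ChIP peaks carry no marker expression.

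Cbx2 is a subunit of Polycomb repressive complex 1. Its chromodomain binds histone H3 trimethylated at lysine 27, and the complex holds developmental genes silent outside the tissues that use them. The Zic genes encode zinc finger proteins of the dorsal neural tube and neural crest, and sit in the genome as head-to-head pairs. Otx1 and Otx2 encode homeodomain proteins of the forebrain and midbrain, and En1 and En2 homeodomain proteins of the midbrain-hindbrain boundary. Neural patterning genes are classic Polycomb targets in cells of other lineages. H3.3 carrying K36M, a substitution known from chondroblastoma, blocks enzymes that methylate lysine 36 throughout the cell. Vertebrate Polycomb complexes are found mainly at stretches of DNA rich in the dinucleotide CG.

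Promoter sequences from RefSeq (GRCm38.p6) were at hand for 5 of the 8 genes, and are shown for their CG content. Each run below is the 250 bases before an annotated start site, read on the strand of the gene, with every CG in capitals. CG reads the same on both strands, and no other motif was searched. These coordinates belong to GRCm38.p6, and whether a promoter lies inside a listed mm9 peak was not determined. Of the 4 Otx2 start sites, the one farthest upstream is printed.

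Zic5 (minus strand, chr14:122465659-122465908): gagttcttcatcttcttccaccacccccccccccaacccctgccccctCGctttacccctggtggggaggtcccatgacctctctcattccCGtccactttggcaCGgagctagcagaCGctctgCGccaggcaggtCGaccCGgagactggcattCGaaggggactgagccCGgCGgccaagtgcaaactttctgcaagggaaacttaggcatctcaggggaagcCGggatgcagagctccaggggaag

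Otx2 (minus strand, chr14:48667645-48667894): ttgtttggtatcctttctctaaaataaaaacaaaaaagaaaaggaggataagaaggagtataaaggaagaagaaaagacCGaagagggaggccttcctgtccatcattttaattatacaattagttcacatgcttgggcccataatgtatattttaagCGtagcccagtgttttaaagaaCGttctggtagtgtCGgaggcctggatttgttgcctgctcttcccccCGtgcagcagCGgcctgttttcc

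Zic1 (minus strand, chr9:91365769-91366018): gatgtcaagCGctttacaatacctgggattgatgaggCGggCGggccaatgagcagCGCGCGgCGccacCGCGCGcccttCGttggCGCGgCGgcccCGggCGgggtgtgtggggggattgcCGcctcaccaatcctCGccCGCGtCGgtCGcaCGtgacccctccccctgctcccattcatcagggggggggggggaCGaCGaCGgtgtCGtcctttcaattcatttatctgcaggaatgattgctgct

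En1 (plus strand, chr1:120602237-120602486): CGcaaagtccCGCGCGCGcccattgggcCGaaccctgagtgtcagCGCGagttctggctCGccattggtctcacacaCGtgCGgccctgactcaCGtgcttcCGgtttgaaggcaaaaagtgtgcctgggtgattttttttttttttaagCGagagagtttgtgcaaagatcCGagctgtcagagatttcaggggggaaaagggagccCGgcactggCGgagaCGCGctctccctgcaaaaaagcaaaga

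Among the promoters at hand, those of Zic1 and En1, whose windows had no listed peak, held the most CG. The Zic1 promoter held 27 CG dinucleotides and the En1 promoter 19, numbers reached by 8.56% and 19.7% of the 32851 promoters in the table. The Zic5 promoter, of the locus with the strongest Cbx2 signal of the set, held 11 CG, a number reached by 35.6% of promoters. The printed Otx2 promoter held 6, the median over all promoters, and the other Otx2 start sites held 8, 14 and 9. Relative to the number that the C and G content of the sequence would give, the order was different: the Otx2 site with 14 CG had an observed/expected ratio of 1.03, above Zic1 (0.995) and En1 (0.977). Zic4, which shares the Zic1 window, had 4 CG, a number reached by 62.2% of promoters. At least 1 CG was present in 92.1% of all promoters. No promoter of Zic2, Otx1 or En2 was at hand. Loci with and without a listed peak therefore cannot be compared in CG content from these sequences.

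The Zic2/Zic5 locus carried by far the most Cbx2 signal of these loci. Zic2 and Zic5 are adjacent genes, and Zic2 is required for forebrain midline formation. The first of its peaks, at chr14:122875200-122880399, was 5200 bp long and held 419 reads in H3.3WT and 85 in K36M. In reads per 1000000 library reads (RPM) these were 14.3 and 2.35. The other, at chr14:122884200-122891599, was 7400 bp long and held 1799 reads in H3.3WT and 401 in K36M, or 61.4 and 11.1 RPM. Only 3.8 kb separated the pair, against a median gap of 194.0 kb between neighbouring peaks over the genome, where 18.1% of gaps were 10 kb or less. The second peak ranked 20th of 2217 peaks by RPM and 18th by RPM per kb of peak in H3.3WT. No further peak was listed between it and the distal end of chromosome 14, and the nearest on the other side ended 3993 kb before the window.

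Both Zic2/Zic5 peaks were lower in K36M, and by about the same factor. The K36M/WT ratio of RPM was 0.164 (95% exact interval 0.128 to 0.207) at the first and 0.180 (0.161 to 0.201) at the second. These intervals cover counting error only, as do all those below. The quotient of the first ratio over the second was 0.910 (0.695 to 1.18), so a difference between the neighbours was not detectable at this depth. The second peak accordingly held 81.1% of the reads of the pair in H3.3WT (95% exact interval 79.4 to 82.7%) and 82.5% in K36M (78.8 to 85.8%). Summed, the locus went from 75.8 to 13.4 RPM, a 5.65-fold lower value.

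The Otx1 locus changed as much from a lower level. Otx1 acts in the growth of the cerebral cortex and in the inner ear. Its single peak, at chr11:21886200-21891799, was 5600 bp long and held 416 reads (14.2 RPM) in H3.3WT and 90 reads (2.48 RPM) in K36M. The ratio was 0.175 (0.138 to 0.220), or 5.72-fold lower. Per kb of peak, the level was 2.54 RPM in H3.3WT and 0.443 RPM in K36M, the lowest K36M level of the set. A 400 bp peak 67.6 kb away, outside the window, held 28 and 8 reads, a ratio of 0.231 (0.0909 to 0.520). On the other side, the nearest listed peak began 4349 kb after the window. It held 149 and 32 reads, a ratio of 0.173 (0.115 to 0.256), as low as that of the Otx1 peak.

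The Otx2 locus, in contrast, had a short and weak peak that kept more of its signal. Otx2 is needed for the formation of the anterior head and later for photoreceptors. Its peak, at chr14:49283000-49283999, was 1000 bp long and held 70 reads (2.39 RPM) in H3.3WT and 36 reads (0.993 RPM) in K36M. The ratio was 0.415 (0.270 to 0.630), a 2.41-fold lower value. Otx1 and Otx2 thus had similar levels per kb in H3.3WT, 2.54 and 2.39 RPM, and different levels in K36M, 0.443 and 0.993 RPM. The Otx2 ratio was 2.37 times the Otx1 ratio (95% exact conditional interval 1.45 to 3.85).

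**Figure D1:**
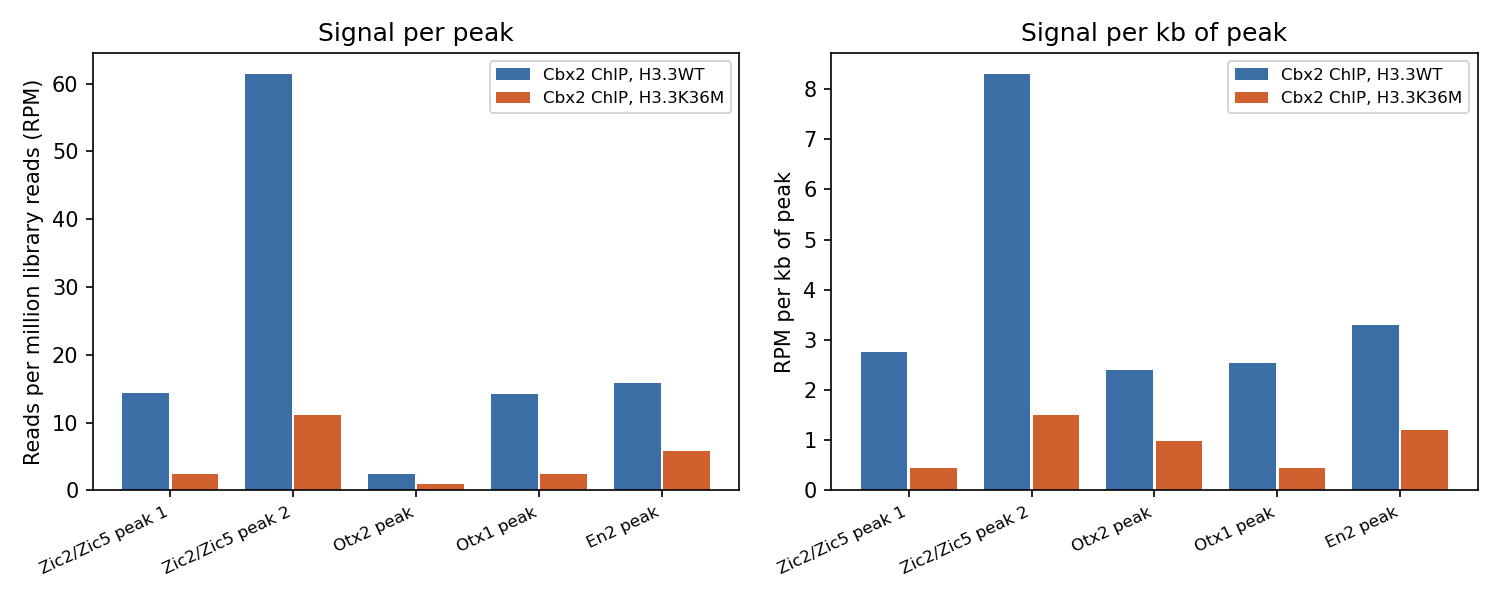
Cbx2 signal at the 5 peaks in the H3.3WT (blue) and K36M (orange) libraries, in RPM per peak (left) and in RPM per kb of peak (right), 1 library each. The second Zic2/Zic5 peak stands above the rest in both libraries.

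The En2 peak, at chr5:28446400-28451199, held 464 reads (15.8 RPM) in H3.3WT and 208 reads (5.74 RPM) in K36M. En2 acts in the patterning of the cerebellum. The ratio was 0.362 (0.306 to 0.427), a 2.76-fold lower value, and at 1.196 RPM per kb the peak kept the second highest K36M level of the set. Peaks beside it had ratios on both sides of its own. A 400 bp peak at chr5:28397800-28398199 held 32 reads in H3.3WT and 51 in K36M, a ratio of 1.29 with an interval of 0.812 to 2.07 that includes 1. On the other side, a 4000 bp peak at chr5:28608200-28612199 held 243 and 99 reads, a ratio of 0.329 (0.258 to 0.417), close to that of the En2 peak. Which gene the En2 peak belongs to was not determined. On GRCm38, the protein-coding genes next to En2 are Insig1 and Cnpy1.

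The Zic1/Zic4 and En1 windows lay in long stretches with no listed peak. Zic1 acts in cerebellar development, Zic4 is its head-to-head partner, and En1 specifies the midbrain and hindbrain and the ventral limb. Around Zic1 and Zic4, the nearest peaks lay 2113 kb before and 2451 kb after the window. Around En1 they lay 2104 kb before and 10987 kb after it. Both gaps are longer than the upper quartile of gaps between neighbouring peaks, 1141 kb. The table gives no value for a region that is not listed, so the Cbx2 signal at these genes is unknown in both libraries. The lowest H3.3WT density in the table was 9.5 reads per 200 bp, and weaker sites are not in it.

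**Figure D2:**
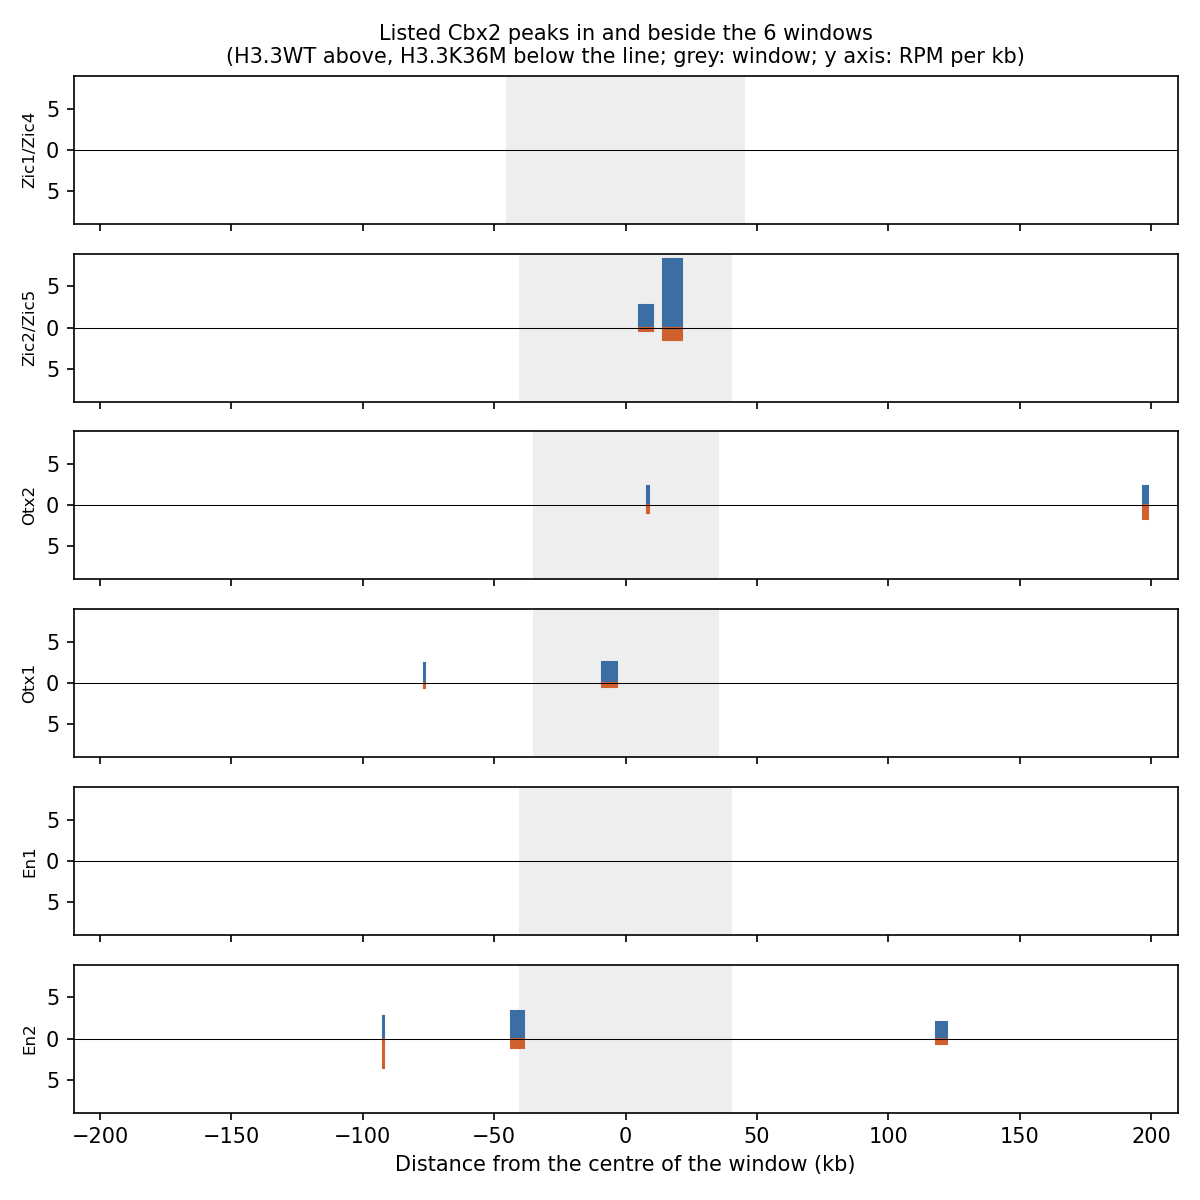
Listed peaks in and beside the 6 windows (grey), by distance from the centre of the window in kb, with bar width to scale and bar height in RPM per kb for H3.3WT (above the line) and K36M (below the line). The Zic1/Zic4 and En1 panels are empty, and the En2 peak lies across the left edge of its window.

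Sorted by their ratios, the loci formed a lower and a higher pair, a grouping made after the values were seen. Zic2/Zic5 and Otx1 had ratios of 0.177 (0.160 to 0.195) and 0.175, and their quotient was 1.01 (0.787 to 1.31). Otx2 and En2 had 0.415 and 0.362, with a quotient of 1.15 (0.721 to 1.80). Neither difference was detectable at this depth. Across the pairs the quotients excluded 1: En2 had 2.05 times the ratio of Zic2/Zic5 (1.68 to 2.48) and 2.07 times that of Otx1 (1.55 to 2.78), and Otx2 had 2.35 times that of Zic2/Zic5 (1.51 to 3.60). These 6 comparisons, of which only the one between Otx1 and Otx2 was planned, were not corrected for their number. They compare the reads of the ChIP libraries and not the conditions. A factor applied to a whole library cancels in them, so they hold under any scaling of the libraries. No background was subtracted, and its part in the differences was not tested.

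Each of the 4 loci with a peak was also set against the sum of the other listed peaks. The 2212 other peaks, summed, had a K36M/WT ratio of 0.414 (0.412 to 0.417). The ratio at Zic2/Zic5 was 0.427 times that value (0.386 to 0.471) and the ratio at Otx1 0.422 times (0.332 to 0.531). For Otx2 the quotient was 1.002 (0.651 to 1.52) and for En2 0.874 (0.738 to 1.03), both with intervals that include 1. These intervals do not measure the spread between peaks. The share of all peaks whose interval would exclude 1, as at Zic2/Zic5 and Otx1, was not computed. These intervals therefore do not set those loci apart from other peaks. On the log2 scale, with a pseudocount of 0.1 RPM, the values were -2.56 and -2.46 at the Zic2/Zic5 peaks, -2.47 at Otx1, -1.45 at En2 and -1.19 at Otx2. The median of these 5 values was -2.46, and the median over all peaks was -1.45, with quartiles of -1.81 and -1.004. Both Zic2/Zic5 peaks are among the 5 values, so that locus weighs more than the others. The median of the 5 is the value of its second peak. Counted from the lowest of the 2217 log2 ratios, the Zic2/Zic5 peaks ranked 31st and 53rd, Otx1 51st, En2 1103rd and Otx2 1486th.

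All 5 peaks were lower in K36M on the RPM scale, as were 95.4% of all listed peaks, and all 5 were at least 2-fold lower, as were 75.3% of all peaks. With a pseudocount of 1 RPM, Otx2 was at -0.77 and no longer among them. At least 3-fold lower were 3 of 5, against 39.9% of all peaks. The same 3 were at least 4-fold lower, a limit chosen after the values were seen, against 15.9% of all peaks. These 3 were the neighbouring Zic2/Zic5 peaks, which share 1 locus, and the Otx1 peak, so they stand for fewer loci than peaks. The 95% exact interval excluded 1 on the lower side at all 5, and at 86.8% of all peaks. The lowest H3.3WT level of any listed peak was 1.62 RPM per kb, while K36M levels ran down to 0.138. In K36M, all 5 peaks and 86.9% of all peaks lay below that lowest H3.3WT level. Which libraries the peaks were called in is not given. How far a choice of peaks by H3.3WT signal would by itself make K36M lower was not tested. All peaks together took 1.63% of H3.3WT reads and 0.674% of K36M reads, so a weaker immunoprecipitation and less Cbx2 at these loci cannot be told apart. The sign of the log2 ratio rested on the scaling at Otx2 and En2, and no interval was computed for scaled values. Scaling both libraries to 1 common median over peaks moved the median of all peaks from -1.45 to -0.022. The log2 ratio was then 0.25 at Otx2 and 0.064 at En2, and 3 of 5 peaks were lower, as were 51.2% of all peaks, a share that this scaling sets near its centre by construction. With the same upper quartile 3 of 5 were lower, against 52.3% of all peaks, and with the same sum 4 of 5, against 66.3%. Zic2/Zic5 and Otx1 stayed lower under all of these, at -0.97 and -0.98 with the same median.

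**Figure D3:**
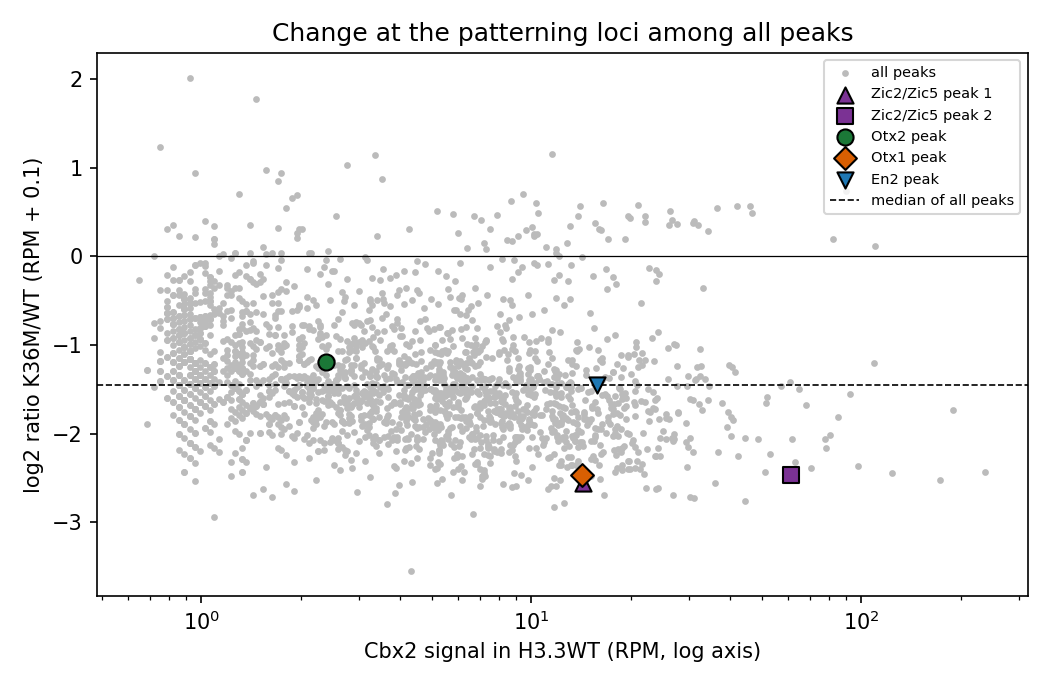
The log2 ratio of K36M to H3.3WT (RPM plus 0.1) against H3.3WT signal in RPM (log axis) for all 2217 peaks (grey), with the 5 peaks of these loci marked and the dashed line at the median of all peaks, -1.45. The Zic2/Zic5 and Otx1 peaks lie near the lower edge of the cloud, and the En2 and Otx2 peaks, whose sign turns with a common median in both libraries, lie within it.

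The 5 peaks were long by the standard of the table, apart from that of Otx2. Their lengths ran from 1000 to 7400 bp with a median of 5200 bp, against 1600 bp over all peaks. They covered 0.427% of the length of all peaks and held 0.663% of all peak reads in H3.3WT and 0.335% in K36M. H3.3WT levels per kb ran from 2.39 RPM at Otx2 to 8.30 RPM at the second Zic2/Zic5 peak, and the median over all peaks was 2.35 RPM. In order, the levels were 2.39 (Otx2), 2.54 (Otx1), 2.75 (first Zic2/Zic5 peak), 3.302 (En2) and 8.30 RPM per kb. The K36M order was different, with Otx1 at 0.443, the first Zic2/Zic5 peak at 0.451, Otx2 at 0.993, En2 at 1.196 and the second Zic2/Zic5 peak at 1.495 RPM per kb. In K36M, the first Zic2/Zic5 peak and Otx1 lay above 6.0% and 5.46% of all peaks by this measure, and in H3.3WT above 77.5% and 64.8% of them.

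**Figure D4:**
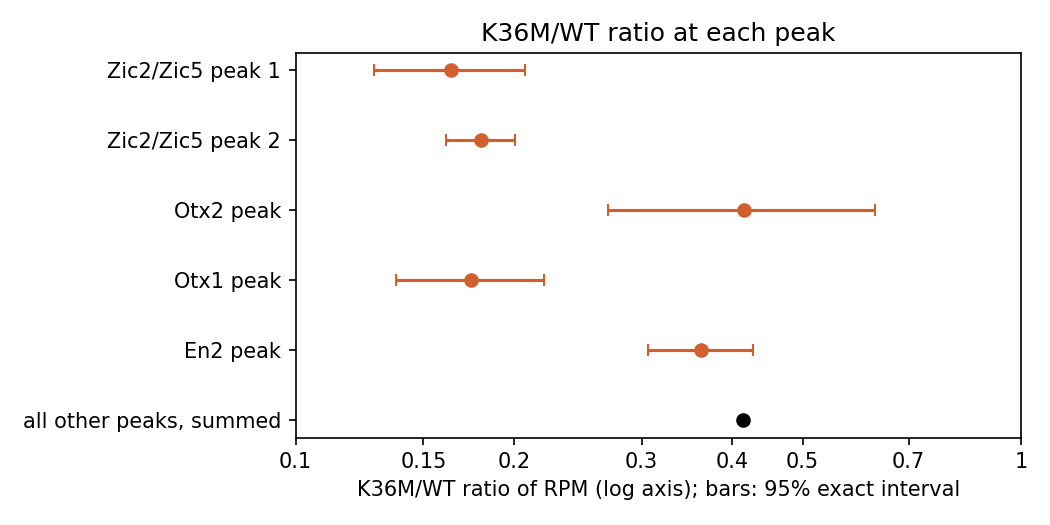
K36M/WT ratio of RPM (log axis) at each of the 5 peaks and over the sum of the 2212 other peaks, with 95% exact intervals that cover counting error only; the interval of the sum is narrower than its point. The Zic2/Zic5 and Otx1 intervals end at or below 0.220, and those of Otx2 and En2 reach 0.630 and 0.427, on the RPM scale.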

How the data were processed

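Cbx2 ChIP-seq was deposited as a table of 2217 peaks with 1 value column each for the H3.3WT and K36M libraries. The submitters' processing notes name Bowtie 1.0.0 and the mm9 build. Not given in the sources used here were the peak caller, the libraries in which it was run, and how duplicates and the input were handled. The labels name 2 suppliers of the antibody. The deposited values are headed RPKM, but are reads per 1000000 library reads (RPM): all were whole multiples of 1 step per column, within 1e-06 of a read, whatever the peak length. That step gave the library sizes and the reads per peak. The H3.3WT column was read as the ChIP library because the table is named for Cbx2.

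Members and comparisons were chosen with earlier results of these data known. Every locus of the rule is named and every member peak is given. A further list of brain patterning genes could not be placed on mm9 and was not used. A peak was a member if it overlapped a window by any amount. Log2 ratios used a pseudocount of 0.1 RPM, which understates changes of weak peaks. Ratios carry 95% exact (Clopper-Pearson) intervals given the reads of both libraries, and quotients of ratios 95% exact conditional intervals. Reads amplified by PCR with no molecular identifiers do not count independent molecules, and these intervals cover counting error only. Calculations were run in Python 3.11.15 with scipy 1.17.1 and pandas 2.3.3. The intervals were checked on simulated reads drawn independently, with no PCR copies and no variation between libraries. That check therefore covers the arithmetic of the intervals and not their fit to the real reads. Alternatives were other pseudocounts, scalings, limits, windows and a filter on low values. Promoters were read from RefSeq.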

Additional observations from a re-analysis of the deposited data

How the results depend on the processing

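No paired analysis was possible because the comparison has 1 library on either side, and no replicate could be left out. Scaling moved the results most. With the same median, the same upper quartile and the same sum in both libraries, the median log2 ratio of the 5 peaks was -0.94, -0.96 and -1.19, with 1, 1 and 3 peaks at least 2-fold lower, where 3.47%, 3.83% and 8.39% of all peaks passed that limit. In that order the log2 ratios were -0.97, -0.99 and -1.22 at Zic2/Zic5, -0.98, -0.997 and -1.23 at Otx1, 0.25, 0.23 and 0.0078 at Otx2, and 0.064, 0.044 and -0.19 at En2. The sign thus turned at Otx2 under all 3 and at En2 under the first 2. No interval was computed for the scaled values, so a rise at Otx2 or En2 is not shown. With a pseudocount of 1 the median was -2.13, Otx1 was also at -2.13, and 4 of 5 peaks stayed at least 2-fold lower, since Otx2 was at -0.77. The share of all peaks past that limit with this pseudocount was not computed, so the count cannot be set against it. Windows widened by 100 kb gave 8 peaks with a median of -1.64. Of these, 7 were at least 2-fold lower, against 75.3% of all peaks, both with the pseudocount of 0.1. Peaks wholly within a window, which leaves out En2, gave a median of -2.47 over 4. Limits of 3-fold and, added after seeing the data, 4-fold each left 3 peaks, against 39.9% and 15.9% of all peaks. These were the Zic2/Zic5 pair, which shares 1 locus, and Otx1. With signal divided by peak length, the second Zic2/Zic5 peak made up 75.1% (H3.3WT) and 76.8% (K36M) of the summed RPM per kb of the pair. The Otx2 over Otx1 quotient stayed at 2.37 with the strongest peak of each, since each has 1 peak. The cause of these shifts was not tested beyond how each scaling is built. Depth limits Otx2 most, with 70 and 36 reads.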
